A study of Rattus norvegicus with 4 samples.

Results

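The genes described here encode the sarcomere, the Z-disc and the dystrophin complex of striated muscle, and they were followed in liver RNA of male WNIN/Ob rats, a strain of Wistar origin that segregates obese and lean animals. The 54 genes were chosen by their values on these same arrays, since they belong to the muscle transcripts that differed between the lean and the obese pool. Their differences between the pools are therefore a description, with no test. Of the 54 names, 42 were measured among 14506 genes with a value. The other 12, which were Neb, Lmod3, Capz, Myom2, Myom3, Myoz3, Tcap, Synpo2l, Flnc, Xirp1, Dag1 and Sgcb, were not the single symbol of any probe set and were not analysed here. Capz is the name of a protein complex, and the genes of its subunits are given below with the wider list.

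In this study the obese pool combined liver RNA of 4 obese rats and the lean pool that of 4 lean rats, all male, untreated, fed stock diet and 4 months old. Each pool was hybridised to 2 Affymetrix Rat Gene ST arrays, called original and technical replicate in the labels. One pool stands for each phenotype, so the arrays repeat a measurement and do not repeat animals, and no value below has a replicate check or a p-value across animals. In pooled tissue a smaller number of cells of a type cannot be told apart from less RNA per cell, and 1 animal of a pool cannot be told apart from all 4.

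Skeletal and heart muscle contract through sarcomeres, in which thin filaments of actin slide along thick filaments of myosin. Thin filaments are anchored at the Z-disc by alpha-actinin, titin spans from the Z-disc to the M-band, and desmin filaments link neighbouring Z-discs. The dystrophin complex ties this apparatus to the membrane and the matrix outside it. Hepatocytes build no sarcomeres, and in healthy liver desmin is best known from stellate cells.

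Promoters of muscle genes are known for 3 kinds of control element, the CArG box bound by serum response factor, the MEF2 site, and the E-box bound by MyoD and its relatives. RefSeq promoter windows (GRCr8, 250 bases before to 50 after the annotated start) were present for 33 of the 42 measured genes. The promoters of 6 of them are shown, 5′ to 3′ along the gene over the 200 bases before the start, because they hold a CArG box or a MEF2 site, with both motifs and several roles among them. Capitals mark the CArG box in the promoters of Acta1 (chr19:68784195-68784394, minus strand) and Ldb3 (chr16:9924680-9924879, minus strand). In the promoters of Ttn (chr3:82332111-82332310, minus strand), Myoz2 (chr2:213852779-213852978, minus strand), Smpx (chrX:41107138-41107337, minus strand) and Klhl41 (chr3:74841918-74842117, plus strand) they mark the MEF2 site.
Acta1: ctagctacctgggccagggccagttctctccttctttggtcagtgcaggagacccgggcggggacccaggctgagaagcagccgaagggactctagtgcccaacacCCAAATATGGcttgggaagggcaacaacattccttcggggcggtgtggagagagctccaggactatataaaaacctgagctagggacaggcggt
Ldb3: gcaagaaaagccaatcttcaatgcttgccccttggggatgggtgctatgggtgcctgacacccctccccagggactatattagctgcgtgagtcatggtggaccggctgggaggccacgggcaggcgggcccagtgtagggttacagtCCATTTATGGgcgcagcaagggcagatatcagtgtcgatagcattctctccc
Ttn: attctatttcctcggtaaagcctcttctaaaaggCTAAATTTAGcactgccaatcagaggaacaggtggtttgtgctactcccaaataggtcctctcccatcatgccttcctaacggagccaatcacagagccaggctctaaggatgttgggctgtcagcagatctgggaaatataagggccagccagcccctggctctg
Myoz2: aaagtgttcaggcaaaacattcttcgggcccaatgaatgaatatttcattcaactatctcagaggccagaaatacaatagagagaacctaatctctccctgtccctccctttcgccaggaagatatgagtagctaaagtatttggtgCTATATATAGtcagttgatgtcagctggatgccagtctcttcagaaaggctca
Smpx: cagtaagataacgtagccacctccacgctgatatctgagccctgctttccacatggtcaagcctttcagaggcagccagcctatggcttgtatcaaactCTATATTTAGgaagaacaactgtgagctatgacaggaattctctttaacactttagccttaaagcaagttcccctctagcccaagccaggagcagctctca
Klhl41: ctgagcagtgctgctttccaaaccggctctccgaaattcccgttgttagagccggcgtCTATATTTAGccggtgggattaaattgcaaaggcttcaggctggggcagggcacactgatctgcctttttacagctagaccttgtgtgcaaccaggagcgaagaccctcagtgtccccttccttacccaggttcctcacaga

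On both strands of the 300-base windows, the MEF2 site (matched to its degenerate consensus) was found in 8 of the 33 genes, or 24.2%, against 3.66% of the 27457 genes with a window in the RefSeq table. Those 8 were Ttn, Myoz1, Myoz2, Xirp2, Hspb7, Smpx, Klhl40 and Klhl41. The CArG box (CC, a run of A or T, GG) was found in Acta1, Ldb3 and Dmd, 3 of 33 or 9.09%, against 1.77% of all genes. The E-box CAGCTG was found in 11 of 33, or 33.3%, against 16.2%, and the wider form CANNTG, which includes CAGCTG, in 28 of 33, or 84.8%, against 73.2%. CArG and MEF2 matches lay 29 to 166 bases before the annotated start. Of the 11 genes with a CArG or MEF2 match 10 were 2-fold lower in the obese pool, with a median difference of -4.32. Of the 22 genes without one 17 were, with a median of -2.63. Over all 14506 genes 1.48% were 2-fold lower. The members were chosen on this contrast and their differences followed the lean level (Pearson's r -0.85). Nothing is therefore read from this split by motif. These matches describe letters in a window and not binding.

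**Figure D1:**
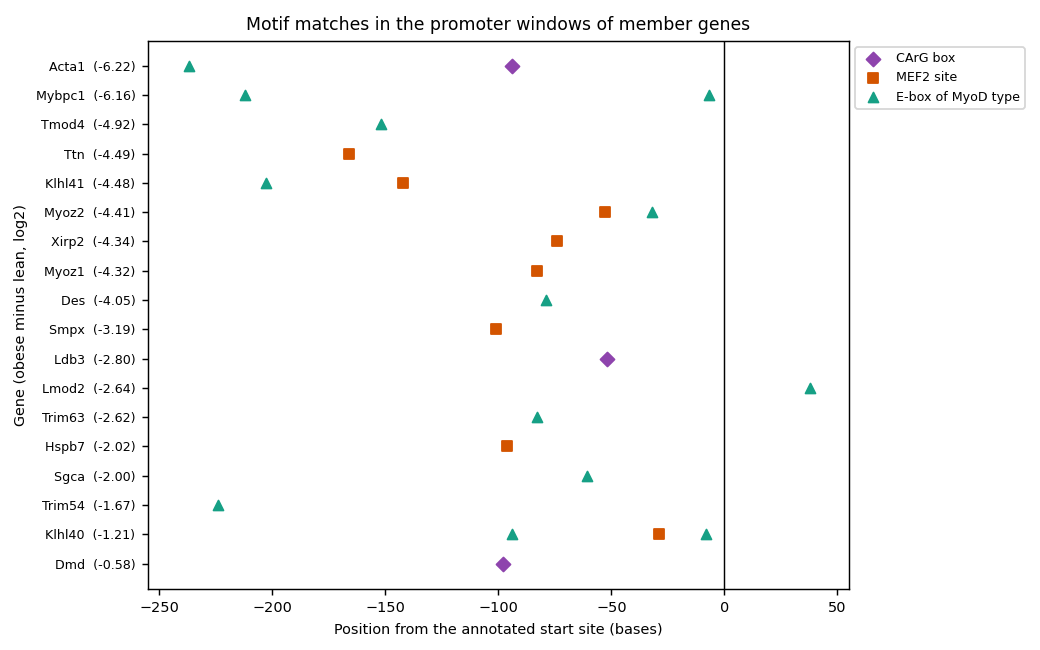
Positions of CArG boxes, MEF2 sites and CAGCTG E-boxes (of MyoD type) in the promoter windows of member genes, in bases from the annotated start site (x axis). Genes are ordered by the obese minus lean difference in brackets (log2), and only genes with a match are drawn (first window with a match where a gene has several). The 11 CArG and MEF2 matches all lie within 166 bases before the start.

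Values are RMA intensities on the log2 scale, where 1 unit is a factor of 2. A gene was counted as 2-fold lower or higher in the obese pool when the pool means differed by that factor, no obese and lean array lay closer than 0.5, and the higher pool reached the median level of all genes (5.48, here called the level filter). A 1.5-fold rule asked for a gap of 0.25. No detection call was used, so a level below the filter is not known to be above background. Where a fold is given for a gene whose obese level lay below it, it reads "at least", with the lean level set against the filter. Some such genes are given by array values or by a log2 difference alone, which carries no such bound. Of the 42 genes 38 passed the filter, all 38 through the lean pool, and 5 of them reached it in the obese pool as well.

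All 42 genes had a lower mean in the obese pool than in the lean pool, and of these 33 (78.6%) passed the 2-fold rule as lower while 0 passed it as higher. Over all 14506 genes, 1.48% were 2-fold lower and 0.572% higher, the members included. By the 1.5-fold rule 35 (83.3%) were lower and 0 higher, against backgrounds of 2.43% lower (352 genes) and 2.19% higher (317 genes). Cyclic loess between the arrays moved the background split to 400 lower and 227 higher, and leaving out the obese technical replicate array raised the number higher to 553. In 39 of the 42 both obese arrays lay below both lean arrays, as they did in 18.5% of all genes. The median difference was -2.69 over the members and 0.03 over all genes, or -1.71 over the members with every level below the filter raised to it. Because the genes were chosen on this contrast, nothing is read from these counts.

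**Figure D2:**
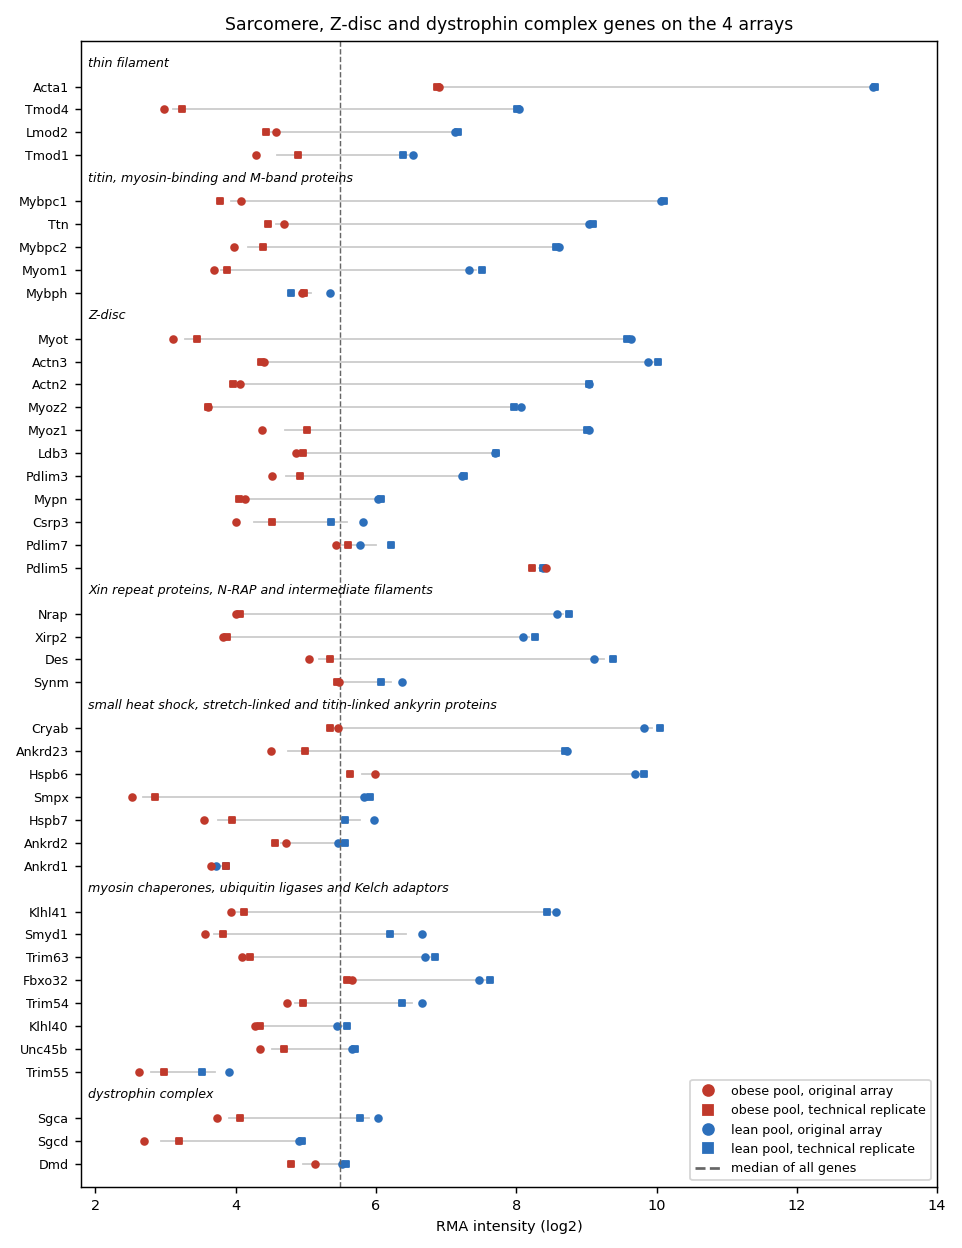
RMA intensity (log2, x axis) of the 42 measured genes on the 2 arrays of the obese pool (red) and the 2 arrays of the lean pool (blue), grouped by role and ordered by difference. Circles are original arrays, squares are technical replicates, grey lines join the pool means and the dashed line is the median of all genes at 5.48. The pools are apart for 39 genes and overlap for Mybph, Pdlim5 and Ankrd1.

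All 4 measured genes of the thin filament were 2-fold lower in the obese pool. Acta1, the actin of skeletal muscle, had 6.89 and 6.87 on the obese arrays, against 13.08 and 13.12 on the lean arrays. The difference of -6.22 stands on an obese level above the filter, which makes it the largest firm difference among the members. Tmod4, a tropomodulin that caps thin filaments in skeletal muscle, had 2.98 and 3.23 in the obese pool and 8.04 and 8.01 in the lean pool, at least 5.82-fold lower. Lmod2, a leiomodin that lengthens thin filaments at their pointed ends, stood at 4.58 and 4.43 in the obese pool and 7.13 and 7.16 in the lean pool. Tmod1, the tropomodulin of heart, nerve and red cells as well as muscle, was at least 1.97-fold lower, with 4.30 and 4.89 in the obese pool against 6.53 and 6.39 in the lean pool.

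Of the 5 measured genes of titin, the myosin-binding proteins and the M-band, 4 were 2-fold lower in the obese pool. Mybpc1, the slow myosin-binding protein C, had 4.08 and 3.78 in the obese pool against 10.06 and 10.11 in the lean pool, at least 24.3-fold lower. Ttn, the giant spring of the sarcomere, had 4.70 and 4.46 in the obese pool against 9.04 and 9.10 in the lean pool, at least 12.0-fold lower. The fast myosin-binding protein C, Mybpc2, had 3.97 and 4.40 in the obese pool and 8.61 and 8.57 in the lean pool. The M-band cross-linker Myom1 had 3.70 and 3.88 in the obese pool and 7.33 and 7.51 in the lean pool, so that all of these stood apart by several times the gap between arrays of a pool. Mybph, the related protein H, is the exception, with 4.95 and 4.97 in the obese pool and 5.35 and 4.79 in the lean pool. Its pools overlap, both means lie below the filter, and the lean arrays differ by more than those of any other member.

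At the Z-disc 9 of 11 measured genes were 2-fold lower in the obese pool. Myot (myotilin), which binds alpha-actinin and filamin, had 3.11 and 3.46 in the obese pool against 9.63 and 9.58 in the lean pool. Its difference of -6.33 rests on an obese level below the filter, and the firm statement is that it was at least 17.4-fold lower. Both sarcomeric alpha-actinins followed: Actn3, of fast fibres, had 4.41 and 4.37 in the obese pool and 9.88 and 10.01 in the lean pool, and Actn2, of all fibres, 4.07 and 3.96 in the obese pool and 9.04 and 9.04 in the lean pool. They were at least 22.1-fold and 11.8-fold lower.

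The myozenins, which tie calcineurin to alpha-actinin, were both 2-fold lower in the obese pool. Myoz1, the fast isoform, had 4.38 and 5.02 in the obese pool against 9.04 and 9.01 in the lean pool, and Myoz2, of slow fibres and heart, 3.61 and 3.61 in the obese pool against 8.07 and 7.97 in the lean pool. Both obese levels lie below the filter, and the folds were at least 11.7 for Myoz1 and at least 5.80 for Myoz2. The gap of 0.64 between the obese arrays of Myoz1 was the largest of the members.

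The remaining Z-disc genes, most of which encode LIM proteins, were uneven. Ldb3, which binds alpha-actinin through its PDZ domain, had 4.85 and 4.95 in the obese pool and 7.70 and 7.71 in the lean pool, a difference of -2.80, and Pdlim3, the actinin-associated LIM protein, by -2.52. The rest of the group came closer together. Csrp3, the muscle LIM protein, had 4.01 and 4.52 in the obese pool and 5.82 and 5.36 in the lean pool, a difference of -1.33 that a lean level near the filter limits. Without the lean original array its lean level missed the filter and it passed neither rule (-1.10). Mypn, or myopalladin, which links nebulin to alpha-actinin, differed by -1.96. Pdlim7, found in many tissues, differed by -0.49 and passed no rule, with 5.43 and 5.60 in the obese pool and 5.78 and 6.22 in the lean pool. Without the lean original array it passed the 1.5-fold rule (-0.71). Pdlim5, also widely expressed, was the brightest member in the obese pool, with 8.43 and 8.23, against 8.39 and 8.38 in the lean pool, and its fold of 1.04 ranged over the pairs from 0.965 to 1.12.

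All 4 genes of the Xin repeat, N-RAP and intermediate filament group were lower, 3 of them 2-fold. Nrap, a scaffold of myofibril assembly, had 4.00 and 4.06 in the obese pool against 8.59 and 8.75 in the lean pool, at least 9.10-fold lower. Xirp2, an actin-binding Xin repeat protein, had 3.81 and 3.88 in the obese pool and 8.10 and 8.27 in the lean pool, with a difference of -4.34. Des (desmin) had 5.04 and 5.34 in the obese pool against 9.12 and 9.38 in the lean pool, at least 13.6-fold lower. Synm (synemin), which joins desmin filaments and is also made by stellate cells, had 5.48 and 5.45 in the obese pool and 6.37 and 6.07 in the lean pool, and with a difference of -0.76 passed only the 1.5-fold rule.

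Because desmin is also a marker of hepatic stellate cells, the other markers of those cells are set beside it. Of 12 on the list 11 were measured, 0 passed either rule, and their median difference was 0.00. Their summed linear intensity was 1342 and 1190 in the obese pool and 1319 and 1298 in the lean pool. Reln differed by -0.03, Pdgfrb by 0.11 and Lrat, which stores retinol as its ester, by -0.34.

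Of the 7 small heat shock, stretch-linked and ankyrin repeat genes, 6 passed the 1.5-fold rule and 5 the 2-fold rule, all as lower in the obese pool. Cryab (alpha-B crystallin), a chaperone of desmin, had 5.45 and 5.35 in the obese pool against 9.83 and 10.05 in the lean pool, at least 21.9-fold lower. Hspb6 had 5.99 and 5.63 in the obese pool against 9.70 and 9.82 in the lean pool, 15.5-fold lower (13.1 to 18.2 over the pairs) from an obese level above the filter. Hspb7, of heart and skeletal muscle, differed by -2.02. Smpx, a small protein of stretched muscle, had 2.52 and 2.85 in the obese pool, the lowest level of any member there, against 5.83 and 5.91 in the lean pool. Its difference of -3.19 is firm only to a factor of at least 1.31.

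The titin-linked ankyrin repeat proteins split 3 ways. Ankrd23 had 4.50 and 4.98 in the obese pool and 8.73 and 8.70 in the lean pool, at least 9.37-fold lower. Ankrd2, known from slow and stretched skeletal muscle, had 4.72 and 4.56 in the obese pool and 5.47 and 5.56 in the lean pool and passed only the 1.5-fold rule. Without the lean technical replicate array its lean level missed the filter and it passed neither (-0.83). Ankrd1, the cardiac ankyrin repeat protein, had 3.65 and 3.86 in the obese pool and 3.72 and 3.86 in the lean pool, so its arrays overlap at a level below the filter.

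Of the 8 genes that fold, modify or remove sarcomere proteins, 7 were 2-fold lower in the obese pool. Klhl41, a Kelch protein that stabilises nebulin, had 3.94 and 4.12 in the obese pool against 8.57 and 8.44 in the lean pool, at least 8.11-fold lower. Its relative Klhl40 had 4.27 and 4.34 in the obese pool and 5.45 and 5.59 in the lean pool, and without the lean technical replicate array the lean level missed the filter (-1.14). Smyd1, a methyltransferase that acts with the myosin chaperone Unc45b, had 3.56 and 3.82 in the obese pool and 6.66 and 6.20 in the lean pool, and Unc45b itself differed by -1.16. Without the obese original array Unc45b differed by -0.99 and passed only the 1.5-fold rule. The 2 ubiquitin ligases best known from muscle wasting were both lower. Trim63 (MuRF1) had 4.09 and 4.21 in the obese pool against 6.70 and 6.84 in the lean pool, at least 2.44-fold lower. Fbxo32 (atrogin-1), which other tissues also express, had 5.65 and 5.58 in the obese pool against 7.47 and 7.62 in the lean pool, 3.81-fold lower (3.53 to 4.11). Of the other MuRF proteins, Trim54 differed by -1.67. Trim55 had 2.62 and 2.98 in the obese pool and 3.91 and 3.52 in the lean pool, with both means below the filter.

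Of 3 measured genes of the dystrophin complex 1 was 2-fold lower. Sgca (alpha-sarcoglycan), restricted to striated muscle, had 3.74 and 4.06 in the obese pool against 6.03 and 5.78 in the lean pool, at least 1.34-fold lower. Sgcd (delta-sarcoglycan) differed by -1.98, with 2.70 and 3.19 in the obese pool and 4.90 and 4.94 in the lean pool, but both means lie below the filter. Dmd (dystrophin), whose gene also makes short forms in many tissues, had 5.14 and 4.78 in the obese pool and 5.51 and 5.58 in the lean pool, at -0.58 just short of the 1.5-fold rule. It passed that rule without the lean original array (-0.62), without the obese original array (-0.76) and with cyclic loess (-0.61).

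The lean levels of the 42 genes ran from 3.71 to 13.10 with a middle range (25th to 75th percentile) of 5.88 to 8.70, and the obese levels from 2.69 to 8.33 with a middle range of 3.86 to 4.89. The order of the differences followed the lean level. Across the genes, Pearson's r between lean level and difference was -0.85 and Spearman's rho -0.83 (n = 42), 2 quantities that share the lean arrays and the compression of dim values. Between lean and obese level r was 0.38 and rho 0.25. As a guide to the dim end, 53 olfactory receptor genes had a median of 2.54 in the obese pool and 2.58 in the lean pool, with 95th percentiles of 4.30 and 4.44. At or under that percentile lay 20 of the 42 genes in the obese pool (47.6%, against 31.9% of all genes) and 2 in the lean pool (4.76%, against 33.4%). Levels of different probe sets depend on their probes, so this guide is approximate. Against the filter, 24 of the 42 were at least 2-fold and 10 at least 10-fold lower in the obese pool: Acta1, Hspb6, Mybpc1, Actn3, Cryab, Myot, Des, Ttn, Actn2 and Myoz1. Some genes that passed the 2-fold rule were under 2-fold against the filter. Among them were Klhl40 (1.03), Csrp3 (1.08), Unc45b (1.14), Hspb7 (1.22), Mypn (1.48) and Smyd1 (1.93).

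**Figure D3:**
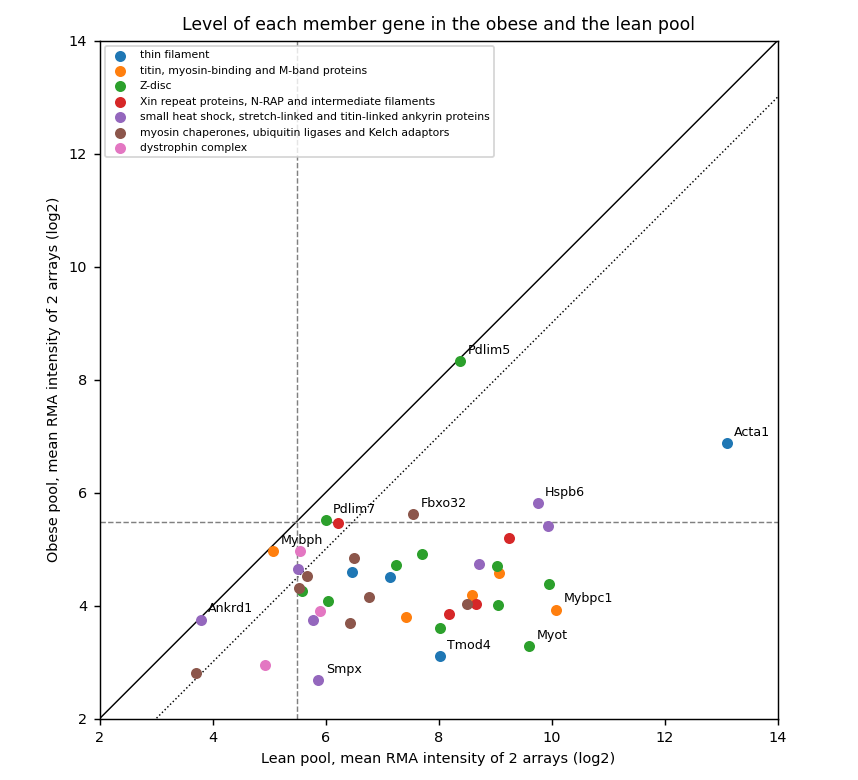
Mean RMA intensity (log2) of each of the 42 genes in the obese pool (y axis) against the lean pool (x axis), coloured by role. The solid line marks equal levels, the dotted line a 2-fold lower obese level and the dashed lines the median of all genes (5.48). All 42 genes lie below the line of equal levels, some of them only just. Acta1, Hspb6, Fbxo32, Pdlim5 and Pdlim7 have obese levels above 5.48.

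Array error was smaller than most of these differences. Between the 2 arrays of a pool the absolute difference of the members had a median of 0.22 in the obese pool and 0.13 in the lean pool, against 0.18 and 0.11 for all genes. The largest were 0.64 (Myoz1) in the obese pool and 0.56 (Mybph) in the lean pool. The differences of the original arrays and those of the technical replicate arrays had a Pearson r of 0.98 and a Spearman rho of 0.97 over the 42 genes, which says how well the 2 pools were measured again and nothing of other animals.

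A wider list of sarcomere and Z-disc genes that are not members held 59 names, of which 40 were measured. Of these 10 were 2-fold lower and 0 higher, 12 were 1.5-fold lower and 0 higher, and the median difference was -0.36. Fhl1, a LIM protein of skeletal muscle, had an obese level above the filter and was 38.8-fold lower (38.3 to 39.3). Mylk2, the light chain kinase of skeletal muscle, was at least 6.39-fold lower. Klhl31 (difference -3.29), Fhl3 (-2.89), Trim72 (-2.85), which reseals muscle membranes, and Nexn (-2.80), an actin-binding Z-disc protein, were 2-fold lower as well. The capping protein subunits that Capz stands for, which all cells use, passed no rule. Capzb differed by 0.02, Capza1 by 0.33 and Capza2 by 0.11.

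A second list, of the dystrophin complex and the costamere, held 33 names, of which 22 were measured. Of these 2 were 2-fold lower in the obese pool, Sspn (sarcospan, -2.15) and Cav3 (caveolin-3 of muscle, -1.20), and the median was -0.04. Dtnb (beta-dystrobrevin, known from non-muscle tissues such as liver, kidney and brain) passed the 1.5-fold rule as higher (0.65), with 6.09 and 5.92 in the obese pool and 5.35 and 5.36 in the lean pool. Integrin-linked proteins that most cells use passed no rule, with Ilk at 0.01, Vcl (vinculin) at 0.22 and Parva at 0.26. Itga7 (-0.36) and Plec (-0.52) of the same list differed by more but passed no rule either.

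Members and their relatives within a protein family were set side by side. In 9 families, set out after the values were seen, 15 of 20 members were 2-fold lower, against 2 of 22 relatives that are not members, and the median differences were -2.58 and -0.01. Members were chosen on this contrast, so nothing is read from the split. The Kelch and TRIM proteins, which also include members, were not among the 9 families. Their relatives Klhl31 (-3.29) and Trim72 (-2.85) were 2-fold lower as well. Beside Acta1, the actin of heart Actc1 differed by -2.02. The smooth muscle actin Acta2 had 8.14 and 8.26 in the obese pool and 8.19 and 8.22 in the lean pool, so its arrays overlap. Beside the sarcomeric alpha-actinins, Actn1 differed by -0.31 and Actn4 by 0.01, the forms of non-muscle cells. Tmod3 differed by 0.28, Csrp1 by 0.05, Pdlim1 by 0.01, Sgce by -0.02 and Utrn (utrophin) by -0.17, each a widely expressed relative of a member. Of these, Sgce lay below the filter in both pools, so its small difference shows little. Mybpc3, the heart form of myosin-binding protein C, had 4.61 and 4.50 in the obese pool and 4.52 and 4.46 in the lean pool. Within the 9 families, the 2 relatives that were 2-fold lower were Actc1 and Hspb1, a small heat shock protein of many cells (-1.35).

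**Figure D4:**
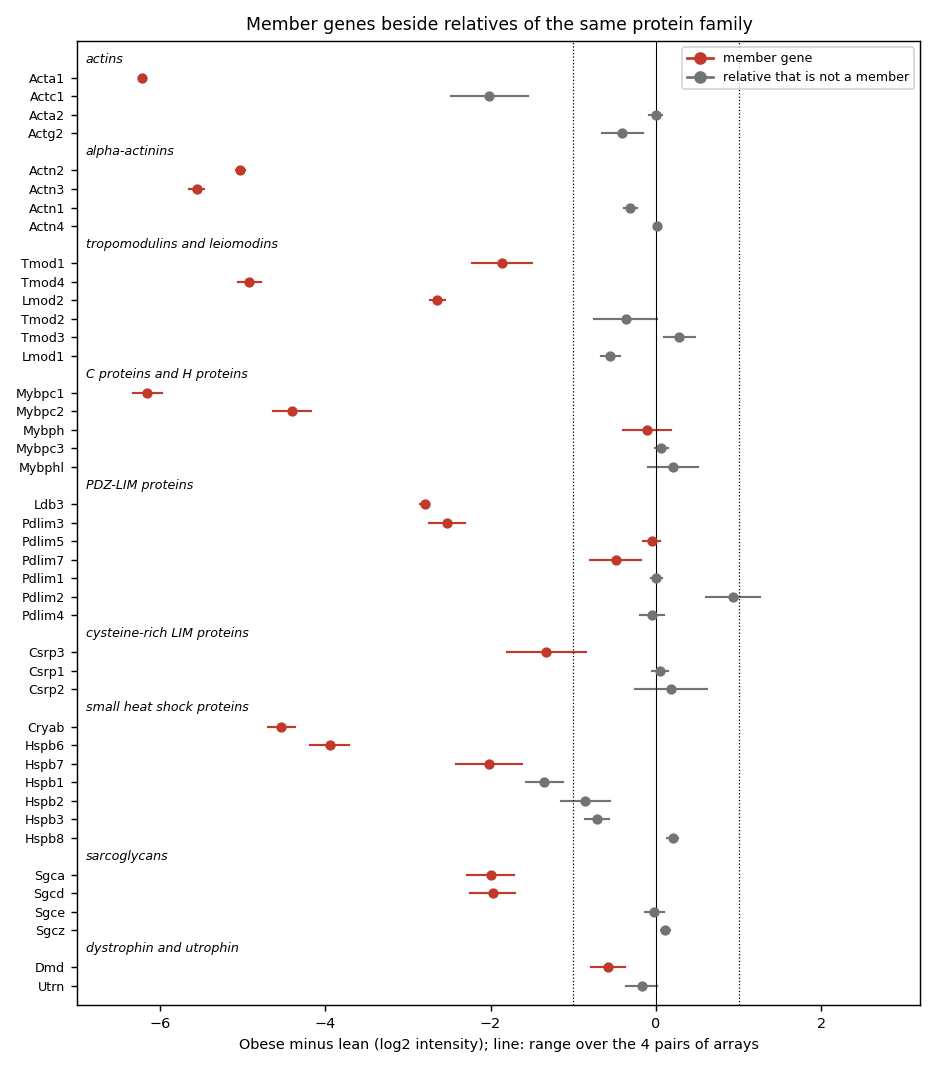
Obese minus lean difference (log2, x axis) of member genes (red) and of relatives that are not members (grey) in 9 protein families, with lines for the range over the 4 pairs of arrays. Dotted lines mark a factor of 2 in either direction. Actn2 and Actn3 lie at -5.03 and -5.56 beside Actn1 at -0.31 and Actn4 at 0.01.

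Marker lists place the member genes beside cell types a liver sample could hold. Of 11 measured hepatocyte markers 0 passed a rule, with a median difference of 0.09. They summed to 84460 and 84419 in the obese pool and 77031 and 80043 in the lean pool (linear intensity), with all 11 above the filter in both pools. All 16 measured markers of skeletal muscle were 2-fold lower in the obese pool, with a median of -5.85 and sums of 442 and 460 in the obese pool against 26098 and 27240 in the lean pool. None of the 10 measured heart markers was 2-fold different and 1, Myh6, was 1.5-fold lower (-0.93). Their sums were 227 and 237 in the obese pool and 241 and 245 in the lean pool, and Nppa (0.04), Tnni3 (-0.01) and Myl7 (-0.01) lay below the filter in both. Bmp10 lay above it in both (0.26), while all the rest but Myh6 lay below it in both, so their likeness shows little. Of 10 smooth muscle markers 1, Myh11, was 1.5-fold lower (-0.67), with sums of 851 and 888 in the obese pool and 914 and 939 in the lean pool. Of 8 adipocyte markers 1, Pnpla2, was 1.5-fold lower (-0.64), with sums of 857 and 814 in the obese pool and 811 and 786 in the lean pool. Mybpc3 and Lmod1 stand on both the wider sarcomere list and a marker list. No marker is listed at 0, because RMA values never are. The part of skeletal muscle RNA in the members' differences was not tested.

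**Figure D5:**
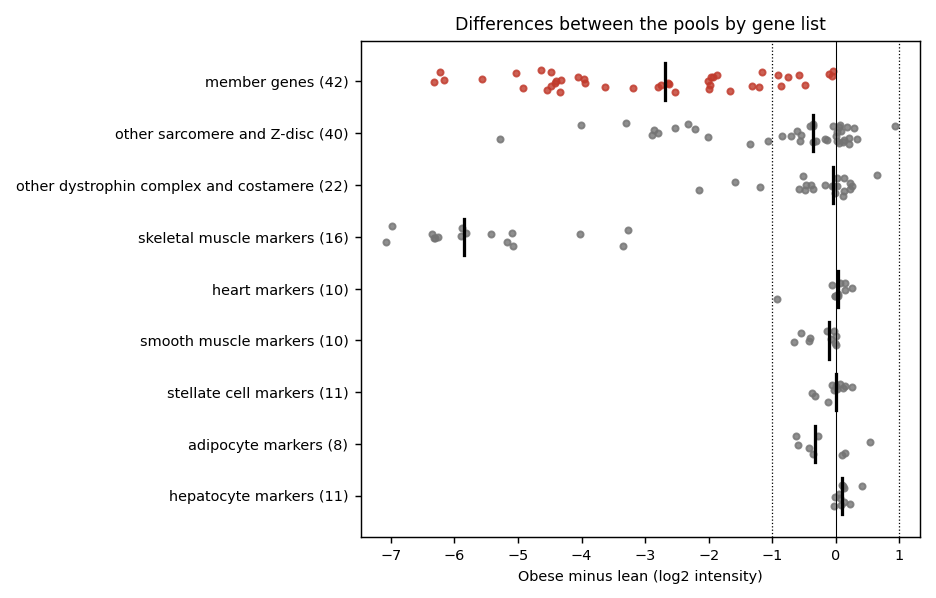
Obese minus lean difference (log2, x axis) of each measured gene in the member list, the 2 wider lists and 6 marker lists, with the number measured in brackets. Points are genes with random vertical spread, black bars are medians and dotted lines mark a factor of 2. The member genes (median -2.69) and the skeletal muscle markers (-5.85) lie to the left, and the other lists have medians between -0.36 and 0.09.

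Genes next to the members on the chromosome were set beside them. In the gene order of GRCr8, 56 measured genes that are not members lie directly beside 1 of the 42, and their median difference was 0.10. Of these 1 was 2-fold lower (1.79%, against 1.48% of all genes) and 1 higher. By the 1.5-fold rule 3 were lower, where 2.43% of all genes were, and 1 was higher. The neighbours named here were chosen after their values were seen. Hhatl beside Klhl40 differed by -1.68, Col1a1 beside Sgca by -0.97 and Hspb2 beside Cryab by -0.85, while Adora1 beside Mybph was higher, at 1.10. Klhl38 beside Fbxo32 (-1.55) and Speg beside Des (-1.07) had no overlap between the pools but lay below the filter in both, and so passed no rule. Speg and Hspb2 also stand on the wider list of sarcomere and Z-disc genes, so they are not neighbours by position alone. Hspb2, itself a muscle heat shock gene, had 4.54 and 4.94 in the obese pool and 5.50 and 5.69 in the lean pool, next to the difference of -4.54 of Cryab.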

How the data were processed

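Liver RNA of 2 pools was measured on 4 arrays, and arrays were grouped by the phenotype in the labels. Each probe set has 1 deposited intensity per array, which the authors made with RMA, as named in the submitters' processing notes. That method ends on a log2 scale, whereas the values ran from 2.31 to 14288 and so were taken as linear; which step made them so, the software version and the build are not given in the sources used here. RMA pulls in very dim and very bright values, so large folds can be understated.

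The log2 was taken here, with no further normalisation. Of 29214 probe sets, 15310 had a single symbol in the platform annotation, 323 had more than 1 and name no gene here, and 13581 were unlisted. The probe set with the highest mean was kept per gene, and each of the 42 members had 1 probe set. All 42 gene identifiers were found in the GRCr8 gene table. Size rules were applied to all 14506 genes and were tested on simulated data. The simulated differences were placed only in genes well above the level filter. Recovery at the dim obese levels of most members was therefore not tested. With 1 pool per phenotype no test was run, and the number of arrays limits the precision.

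Members, lists and rules were chosen with earlier results of these data known. All members are accounted for; other genes are named from the lists, up to 6 per list by size among those past the 1.5-fold rule, and any other was picked for comparison after its values were seen. Protein families and genome neighbours were added after the values were seen. Alternatives were cyclic loess (limma 3.58.1, R 4.3.3), median centring, an offset of 16, other level filters and the mean over probe sets. Further ones were the original arrays alone, the technical replicate arrays alone and leaving out each array. Python 3.11.15, pandas 2.3.3 and matplotlib 3.10.9 were used.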

Additional observations from a re-analysis of the deposited data

How the results depend on the processing

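No paired analysis was possible because the arrays repeat 1 pool per phenotype. The original arrays of both pools were compared alone instead, and so were the technical replicate arrays. The labels do not say whether arrays of the same name were processed together. Under the 12 alternatives the members lower in the obese pool numbered 30 to 34 of 42 by the 2-fold rule and 33 to 37 by the 1.5-fold rule, with 0 higher. The median difference of -2.69 was -1.94 with an offset of 16, which shrinks differences of dim genes by construction, and -2.77 on the original arrays alone. Leaving out 1 array gave medians from -2.79 (without the obese technical replicate) to -2.67. The members that missed the 2-fold rule under some alternative were Csrp3, Klhl40 and Unc45b (-0.78 with the offset). Of 504 values of single genes, 489 kept their side of the 1.5-fold rule. The 6 that no longer passed belonged to Csrp3, Ankrd2 and Klhl40, whose lean levels lie near the filter, and the 9 that newly passed to Pdlim7, Dmd, Trim55 and Sgcd. Mybph, Pdlim5 and Ankrd1, which passed no rule, took either sign. Background counts stayed within 1.5 times of those reported except the genes 1.5-fold higher, 317 in the values reported, 553 when the obese technical replicate was left out and 616 with only the original arrays. Without detection calls, levels under the filter have no known distance to background.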
